A study of Homo sapiens with 17 samples.

Results

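The 9 genes described here are a chosen set from the YAP pathway. They are the co-activators *YAP1* and *WWTR1* (which encodes TAZ), the kinases *LATS1* and *LATS2*, the scaffold genes *AMOTL1* and *AMOTL2*, and the target genes *CYR61*, *CTGF* and *ANKRD1*. They were taken by symbol, and all 9 had reads in the 1 h table, which holds 19222 genes. *CYR61* and *CTGF* are the older symbols of *CCN1* and *CCN2*. The cells were HEK-293T, a human line that derives from embryonic kidney, and the agent was emetine, a plant alkaloid that stops ribosomes from moving along mRNA. In the 1 h experiment, 3 untreated libraries and 3 libraries with 1.8 µM emetine came from cells that took up 500 µM 4-thiouridine (s4U), a uridine analog, during the same hour. In addition, 1 untreated library and 1 library with 1.8 µM emetine came from cells without s4U. The 2 h experiment, in which all cells took up 250 µM s4U, had 3 libraries each of untreated cells, of cells at 1.8 µM emetine and of cells at 240 µM.

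In TimeLapse sequencing, s4U that was built into new RNA is recoded and read as a T-to-C conversion. The fraction new of a gene is the estimated percentage of its reads that came from RNA made during the labeling hour, and a labeled read is one assigned to that RNA. The Hippo pathway is the chain of kinases that holds YAP and TAZ in check. Active LATS kinases phosphorylate YAP and TAZ, which keeps them in the cytoplasm and marks them for breakdown. When LATS activity is low, YAP and TAZ enter the nucleus, bind TEAD transcription factors and switch on genes such as *CYR61*, *CTGF*, *ANKRD1* and *AMOTL2*. *LATS2* and *AMOTL2* act back on the pathway, since their products restrain YAP. None of these protein steps was measured here, and the values below are RNA levels and RNA ages.

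Promoters of the YAP targets *CTGF*, *ANKRD1* and *AMOTL2* are shown because TEAD factors bring YAP to such genes. Each stretch covers the 250 bases upstream of the RefSeq start site (GRCh38.p14), read 5′ to 3′ on the strand of the gene, with the TEAD core GGAATG (or CATTCC where it lies on the opposite strand) in capitals. The *CTGF* stretch lies at chr6:131951373-131951622 on the minus strand, the *ANKRD1* stretch at chr10:90921088-90921337 on the minus strand, and the *AMOTL2* stretch at chr3:134374448-134374697 on the minus strand, upstream of the more proximal of 2 start sites listed for that gene.
CTGF: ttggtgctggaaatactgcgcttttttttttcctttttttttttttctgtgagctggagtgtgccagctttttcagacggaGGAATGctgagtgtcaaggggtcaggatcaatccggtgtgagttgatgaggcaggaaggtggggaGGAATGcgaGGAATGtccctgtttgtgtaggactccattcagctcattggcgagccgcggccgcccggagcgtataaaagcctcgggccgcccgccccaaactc
ANKRD1: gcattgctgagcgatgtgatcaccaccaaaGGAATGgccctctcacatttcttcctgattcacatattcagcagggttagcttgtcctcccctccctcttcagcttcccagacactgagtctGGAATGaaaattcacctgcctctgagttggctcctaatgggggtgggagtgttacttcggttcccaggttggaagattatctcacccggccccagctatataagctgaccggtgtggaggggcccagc
AMOTL2: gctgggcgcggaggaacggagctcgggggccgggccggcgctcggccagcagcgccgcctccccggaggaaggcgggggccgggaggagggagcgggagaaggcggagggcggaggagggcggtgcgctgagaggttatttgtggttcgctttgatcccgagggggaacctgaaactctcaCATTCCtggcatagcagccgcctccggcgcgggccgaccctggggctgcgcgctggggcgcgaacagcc
The core stood 3 times upstream of *CTGF*, at 169, 104 and 95 bases before the start, and 2 times upstream of *ANKRD1*, at 220 and 128 bases. It stood once upstream of *AMOTL2*, at 69 bases. RefSeq windows, from 250 bases before to 50 bases after a start, were at hand for 8 of the 9 genes, all but *CYR61* (11 windows, with 2 each for *WWTR1*, *LATS1* and *AMOTL2*). Searched on both strands, 5 of the 11 held the core, the remaining ones being those of *YAP1* (162 bases before the start) and *LATS2* (9 bases after it). Of all 35116 windows, 14.0% held at least 1 core and 0.128% held 3 or more. A match is a description of the letters and not a binding site, and no binding was measured in these libraries.

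The 3′ untranslated regions of the CCN genes are shown at the sites of AU-rich letters, since such elements are a known feature of short-lived mRNAs. *CYR61* holds 2 copies of UAUUUAU in its 3′ untranslated region of 908 bases, in exon 5 of 5 (GENCODE 44 on GRCh38). The 30-base windows below are written as DNA with the element in capitals. The first lies at chr1:85583558-85583587 and the second at chr1:85583652-85583681, both on the plus strand.
CYR61 site 1: gactgaatgtttTATTTATcaaaatgtagc
CYR61 site 2: gtgaaaagatttTATTTATggaattaacca
*CTGF* holds no UAUUUAU in its 3′ untranslated region of 1088 bases, but it holds the shorter AUUUA at 3 places. The first of them is shown from chr6:131949154-131949183 on the minus strand, also in exon 5 of 5.
CTGF site 1: agtagcacaagttATTTAaatctgtttttc
Of the tested genes with an annotated 3′ untranslated region, 36.4% hold UAUUUAU at least once and 73.7% hold AUUUA at least once. By count, *ANKRD1* and *WWTR1* hold 3 copies of UAUUUAU each, *LATS1*, *LATS2* and *AMOTL1* hold 1 each, and *YAP1* and *AMOTL2* hold none.

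The genes are spread over 6 chromosomes: *CYR61* at chr1:85580761-85584589 (plus strand), *AMOTL2* at chr3:134355347-134375479 (minus), *WWTR1* at chr3:149517235-149736714 (minus), *CTGF* at chr6:131948176-131951372 (minus), *LATS1* at chr6:149658153-149718105 (minus), *ANKRD1* at chr10:90912096-90921087 (minus), *AMOTL1* at chr11:94706431-94876748 (plus), *YAP1* at chr11:102110447-102233424 (plus) and *LATS2* at chr13:20973036-21061586 (minus). Their canonical transcripts differ widely in length. The longest were *AMOTL1* with 8980 bases and *LATS1* with 7362, followed by *LATS2* (5546), *YAP1* (5401), *WWTR1* (5037) and *AMOTL2* (4868). The target genes *CTGF* (2338 bases), *CYR61* (2278) and *ANKRD1* (1790) were the shortest, against a median of 3288 over the tested genes.

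Gene reads per library ran from 22246279 to 40018063. Conversions occurred at 0.0504% of T positions in the untreated library without s4U and at 0.0521% in the emetine library without s4U, and at 8.49% to 9.53% of T positions in new reads of the 6 labeled libraries. Of the markers of the line, all 6 checked (*PAX2*, *NEFL*, *NEFM*, *INA*, *VIM* and *LIN28B*) had reads in all 8 libraries, from 1.23 CPM (read counts scaled to library size) upward. Of 6 markers of other cell types, *PTPRC*, *KRT5* and *AQP2* were not listed, *ALB* and *PECAM1* stayed at or under 0.358 CPM, and *COL1A1*, a collagen gene, stood between 19.3 and 28.1 CPM. The third emetine library stood apart from the rest. Its genes deviated from the group mean with an SD of 0.265 (log2) over 10747 genes, against 0.0919 to 0.159 in the other 5 labeled libraries. Its deviation rose with transcript length (Spearman's rho 0.763 across genes, against -0.688 and -0.687 in the other 2 emetine libraries). Deviations within a group cancel for each gene. The negative values of those 2 therefore cannot be told apart from the rise in the third emetine library. The levels of the 6 members with long transcripts are given with and without that library below. Emetine and s4U were the labeled differences between groups, and no batch is given in the labels. Nothing states that the replicates came from separate cultures, so the p-values measure the spread between these libraries, which may be technical.

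In untreated cells, the co-activator *YAP1* was the most abundant of the 9 per length and the target *ANKRD1* was close to silent. Levels per length are given as TPM (reads per kilobase of transcript, scaled to the same total in each library) over the 3 untreated libraries. *YAP1* stood at 14.3 ± 1.04 TPM (SD, n = 3), *AMOTL1* at 12.2 ± 0.464, *CYR61* at 10.4 ± 0.115 and *LATS1* at 10.0 ± 0.412. *WWTR1* followed at 8.89 ± 0.431 TPM, *CTGF* at 4.15 ± 0.557, *AMOTL2* at 3.65 ± 0.544 and *LATS2* at 1.74 ± 0.0787. *ANKRD1* was last at 0.173 ± 0.0834 TPM. In this order, the ranges of *CYR61* and *LATS1* overlapped, as did those of *CTGF* and *AMOTL2*, whereas the other neighbours did not overlap. Within the pairs, *LATS1* thus exceeded *LATS2*, *AMOTL1* exceeded *AMOTL2* and *YAP1* exceeded *WWTR1*.

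The members also differed widely in RNA age. The targets *CYR61* and *CTGF* were renewed almost wholly within the hour, and *YAP1* hardly at all. The fraction new in the 3 untreated libraries was 95.3, 91.8 and 87.9% for *CYR61*, which encodes a secreted matricellular protein. For *CTGF*, which encodes a related secreted protein, it was 85.7, 90.7 and 86.9%. These values put *CYR61* at percentile 99.8 and *CTGF* at percentile 99.7 of the 10763 genes tested. *AMOTL2* had a fraction new of 64.8, 65.5 and 78.2% (percentile 98.6). *ANKRD1*, a further target, had too few reads for this measure. Among the 8 tested members, *CYR61*, *CTGF* and *AMOTL2* had the youngest RNA. The kinase *LATS2* came next with 35.1, 53.6 and 68.6% (percentile 95.8), followed by *LATS1* with 23.9, 35.9 and 40.9% (percentile 87.9). *AMOTL1* had 12.7, 17.4 and 20.0%, *WWTR1* 14.3, 18.0 and 15.8% and *YAP1* 6.51, 7.49 and 8.37%. The untreated libraries also differed as a whole, since the median fraction new over all tested genes was 9.26, 12.4 and 14.7% in them. *AMOTL2*, *LATS1*, *LATS2*, *AMOTL1* and *YAP1* followed this order of libraries, and *CYR61* ran opposite to it.

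If RNA levels were at steady state and labeling began with the hour, these fractions would correspond to half-lives of 13.6 to 19.7 min for *CYR61*, 17.5 to 21.4 min for *CTGF* and 27.3 to 39.9 min for *AMOTL2*. On the same assumption, the half-life was 35.9 to 96.3 min for *LATS2* and 79.2 to 152.6 min for *LATS1*. It was 186.8 to 304.9 min for *AMOTL1*, 209.5 to 269.0 min for *WWTR1* and 475.7 to 618.3 min for *YAP1*. The ranges of *LATS1* and *LATS2* overlapped, whereas *AMOTL2* and *AMOTL1* were far apart, so that the paralogs of 1 pair were of unlike age.

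**Figure D1:**
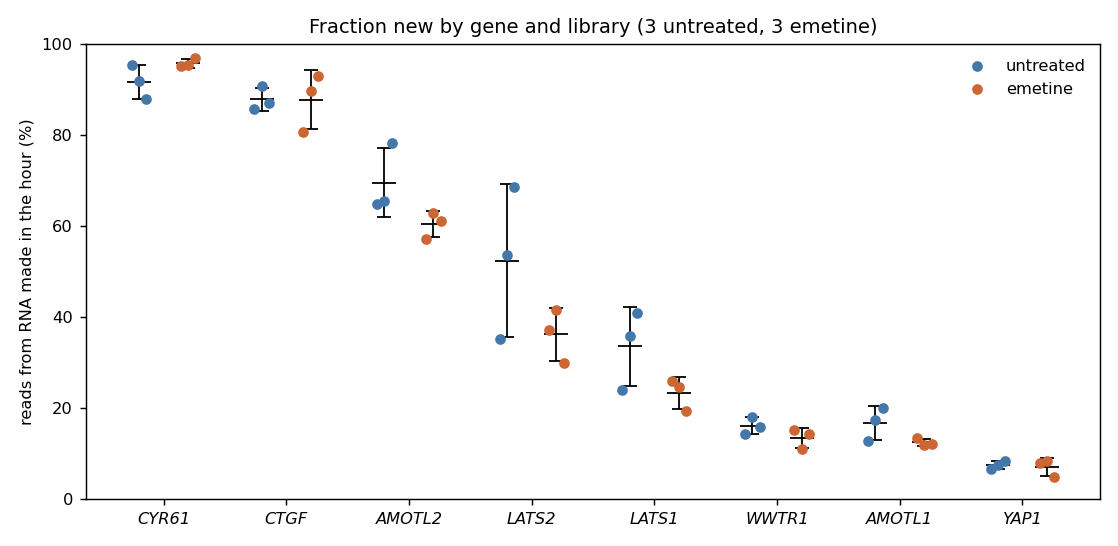
The vertical axis is the percentage of reads from RNA made in the labeling hour and the horizontal axis lists 8 genes. Each point is 1 library (3 untreated in blue, 3 emetine in orange), with the mean and SD in black. *CYR61* and *CTGF* lie above 80% in every library and *YAP1* below 9%. The emetine points of *AMOTL2* lie under all 3 untreated points, a difference that did not pass the test (limma adjusted p = 0.440).

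The raw conversions show the same contrast without any model. Of the *CYR61* reads in the untreated libraries, 81.2, 79.8 and 72.0% carried 2 or more conversions. In the libraries without s4U, 0 of 338 and 0 of 940 *CYR61* reads did so, which allows shares of up to 0.888% and 0.319%. Of the *CTGF* reads, 76.7, 80.6 and 70.3% carried 2 or more, and 0 of 174 and 0 of 343 did without s4U (up to 1.72% and 0.875%). *AMOTL2* reads did so in 47.9, 55.7 and 61.9% of cases, with 1 of 254 and 1 of 470 reads without s4U. *YAP1* reads did so in 6.14, 6.94 and 6.58% of cases. In the libraries without s4U, 0 of 1135 untreated *YAP1* reads and 8 of 1309 emetine *YAP1* reads carried 2 conversions, a share of 0.611% (95% Wilson interval 0.310 to 1.20%). Of those 8 reads, 7 had the same number of T positions (95). Because no molecular identifiers are described, such intervals and limits cover counting error only. The share of reads with 2 or more conversions also depends on how many T positions a read holds, and the mean ran from 33.2 to 43.8 in the labeled libraries.

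**Figure D2:**
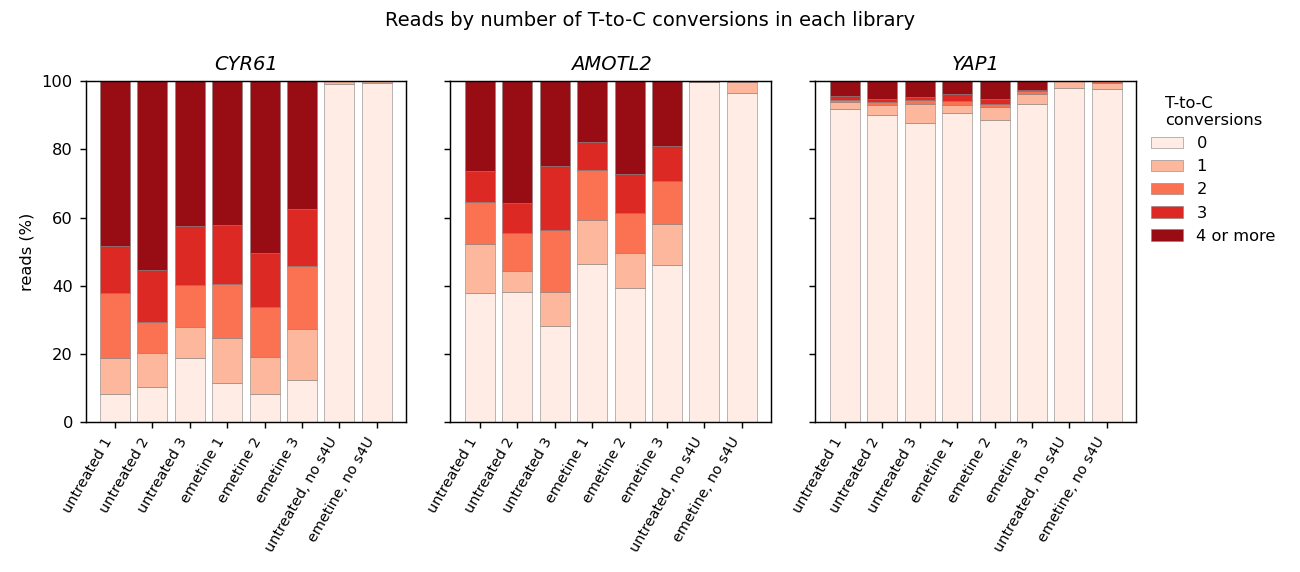
The bars give the percentage of reads (vertical axis) with 0, 1, 2, 3 or at least 4 T-to-C conversions in each of the 8 libraries (horizontal axis), for *CYR61*, *AMOTL2* and *YAP1*. Reads with 2 or more conversions make up at least 72.0% of *CYR61* in every labeled library and at most 7.60% of *YAP1*, and they nearly vanish in both libraries without s4U.

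After 1 h of emetine, the target *CYR61* and the scaffold gene *AMOTL2* rose, and the co-activators and the rest of the members did not pass the test. *CYR61* stood at 13.2, 13.2 and 14.0 CPM in the untreated libraries and at 25.4, 22.1 and 27.7 CPM in the emetine libraries. All 3 emetine values lay above all 3 untreated values, with a gap wider than either group's own range. The log2 fold change was 0.90 ± 0.12 (SE, 1.86-fold; 95% interval 0.63 to 1.17), with an edgeR adjusted p of 0.0101. *AMOTL2*, whose product holds YAP at cell junctions and in the cytoplasm, stood at 10.9, 10.5 and 8.54 CPM untreated and at 15.1, 15.9 and 22.7 CPM with emetine. The groups did not overlap, and the third emetine library was the highest. The log2 fold change was 0.83 ± 0.18 (SE, 1.78-fold; 95% interval 0.42 to 1.24), with an edgeR adjusted p of 0.0492, just inside the threshold of 0.05. Thus 2 of 8 tested members were called higher and 0 lower, where 2.65% of all 13776 tested genes were called higher. The median log2 fold change was 0.46 over the 8 members and 0.03 over all genes.

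Both calls changed when a library was left out. Without any 1 untreated library, *CYR61* kept a log2 fold change of 0.89, 0.88 and 0.93 but had adjusted p-values of 0.0904, 0.0864 and 0.0731. For *AMOTL2*, leaving out any library but the third emetine one gave adjusted p-values of 0.0553 to 0.226. Scaled to spike-in reads, the median of all genes moved to 0.71, with *CYR61* at 1.61 (adjusted p = 0.0867) and *AMOTL2* at 1.51 (0.116), both still above that median. Spike-in reads numbered 126672, 325443 and 120560 in the emetine libraries, against 34193101, 40018063 and 24241615 gene reads. Untreated, they numbered 236732, 213771 and 199699, against 28781645, 36429562 and 22246279. Their share was uneven, so the shift of the median is not shown for each emetine library. With TMM factors and without the third emetine library, *CYR61* and *AMOTL2* had smaller p-values, with *CYR61* at 0.83 (adjusted p = 7.06e-05) and *AMOTL2* at 0.63 (adjusted p = 0.0033). That fit called 13.9% of all genes. Both genes had an exact permutation p of 0.1 (two-sided), which is the smallest value that 3 libraries per group allow.

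**Figure D3:**
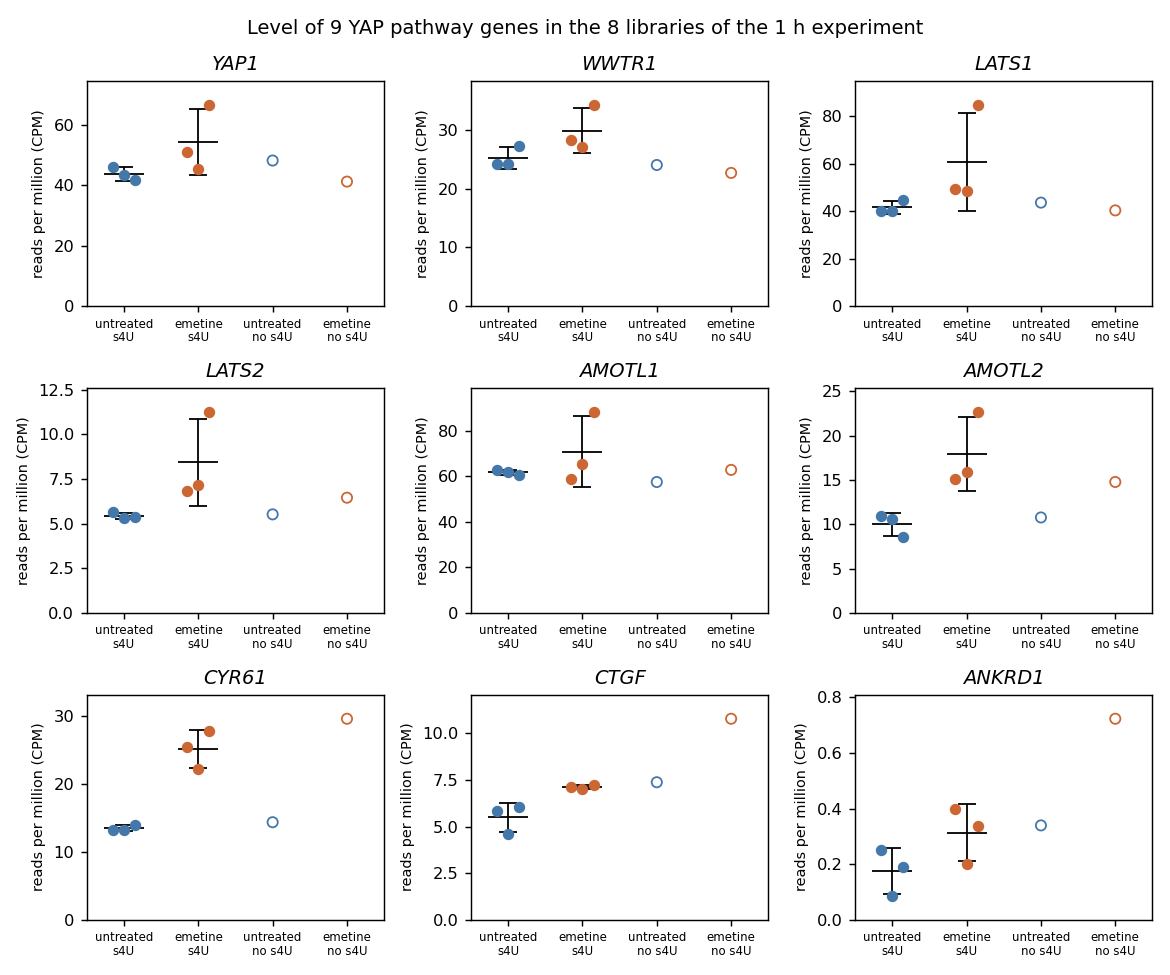
Each panel is 1 gene, with CPM on the vertical axis from 0 and the 4 groups of the 1 h experiment on the horizontal axis. Filled points are libraries with s4U (3 per group, mean and SD in black) and open points the single libraries without s4U. The emetine points of *CYR61* and *AMOTL2* lie above all untreated points in both settings, and 1 of the 3 emetine libraries sits well above the other 2 in *LATS1*, *LATS2*, *AMOTL1* and *YAP1*.

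*CTGF* had a smaller log2 fold change than *CYR61*. It stood at 5.84, 4.58 and 6.04 CPM untreated and at 7.11, 7.01 and 7.24 CPM with emetine. The groups did not overlap, but the untreated libraries were widely spread, and the log2 fold change of 0.38 ± 0.16 had an adjusted p of 0.210. Within libraries with s4U, the ratio of *CYR61* to *CTGF* reads was 2.26, 2.88 and 2.31 untreated and 3.57, 3.15 and 3.83 with emetine. That is a difference of 0.51 on the log2 scale, with no overlap (exact permutation test p = 0.1, two-sided, the smallest the design allows, and 0.2 after adjustment over 4 pairs). In the pair without s4U, the ratio was 1.94 untreated and 2.74 with emetine. *ANKRD1*, which encodes a nuclear ankyrin repeat protein of muscle, had 7, 3 and 4 reads untreated and 14, 8 and 9 reads with emetine. It stayed under the filter of 100 counts. Without that filter, its log2 fold change was 0.84 ± 0.66 (SE, edgeR adjusted p = 0.520), so a difference was not detectable at this depth.

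Neither co-activator passed the test. *YAP1* stood at 46.1, 43.4 and 41.6 CPM untreated and at 51.1, 45.3 and 66.5 CPM with emetine, and *WWTR1* at 24.3, 24.3 and 27.4 and at 28.4, 27.1 and 34.3 CPM. The groups overlapped in both genes. The log2 fold change was 0.31 ± 0.14 for *YAP1* (adjusted p = 0.232; 95% interval -0.0042 to 0.63) and 0.24 ± 0.12 for *WWTR1* (adjusted p = 0.259; 95% interval -0.03 to 0.51). Without the third emetine library, these were 0.14 for *YAP1* (adjusted p = 0.217) and 0.14 for *WWTR1* (adjusted p = 0.277). The ratio of *WWTR1* to *YAP1* reads was 0.526, 0.559 and 0.659 untreated and 0.556, 0.599 and 0.516 with emetine, and the ranges overlapped (exact permutation test p = 0.6, two-sided).

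The kinases *LATS1* and *LATS2*, which phosphorylate YAP and TAZ, lay higher in each emetine library than in any untreated one, without passing the test. *LATS1* stood at 40.1, 39.9 and 44.7 CPM untreated and at 49.6, 48.4 and 84.8 CPM with emetine. *LATS2* stood at 5.63, 5.30 and 5.38 CPM untreated and at 6.85, 7.16 and 11.2 CPM with emetine. In both genes the third emetine library was far above the other 2. The log2 fold change was 0.55 ± 0.20 for *LATS1* (adjusted p = 0.187) and 0.63 ± 0.21 for *LATS2* (adjusted p = 0.157). Without the third emetine library, the change shrank to 0.24 for *LATS1* (adjusted p = 0.0332) and 0.37 for *LATS2* (adjusted p = 0.0928). *LATS1* was thus called in that fit, where 13.9% of all genes were. The ratio of *LATS2* to *LATS1* reads overlapped between the groups, with 0.140, 0.133 and 0.120 untreated and 0.138, 0.148 and 0.133 with emetine (exact permutation test p = 0.4, two-sided).

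*AMOTL1*, the paralog of *AMOTL2*, was not called. It stood at 62.6, 61.8 and 60.6 CPM untreated and at 58.7, 65.5 and 88.2 CPM with emetine, with emetine libraries on both sides of the untreated range. The log2 fold change of 0.20 ± 0.14 (adjusted p = 0.409) fell to 0.01 without the third emetine library. Set against it, *AMOTL2* lay higher with emetine, as the ratio of *AMOTL2* to *AMOTL1* reads was 0.175, 0.170 and 0.141 untreated and 0.258, 0.243 and 0.257 with emetine. The ranges did not overlap, with a difference of 0.65 on the log2 scale (exact permutation test p = 0.1, two-sided; 0.2 over the 4 pairs).

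For the members, the third emetine library also differed in junction reads. Each of the 8 tested members except *CYR61* had its highest junction share of the 6 labeled libraries there. The share of reads that cross an exon junction was 6.11% for *LATS1*, 16.0% for *LATS2*, 17.9% for *YAP1* and 27.9% for *AMOTL2* in that library. In the other 2 emetine libraries it was 2.76 and 2.58% for *LATS1*, 3.33 and 5.58% for *LATS2*, 8.77 and 8.15% for *YAP1* and 14.3 and 11.6% for *AMOTL2*. The gap was smaller for *AMOTL1* (17.3 against 10.4 and 14.2%), *WWTR1* (20.5 against 14.3 and 15.5%) and *CTGF* (21.2 against 14.9 and 16.0%). Over all genes, that library did not stand apart, at 45.4% against 42.2 and 46.8% in the other 2. How many genes had their highest share there was not counted, and the part of junction reads in the changes was not tested. With the trend on transcript length and GC content removed, *CYR61* had a log2 fold change of 0.92 (adjusted p = 0.0037) and *AMOTL2* of 0.71 (adjusted p = 0.0179), while *LATS2* had 0.46, *LATS1* 0.27, *YAP1* 0.10, *WWTR1* 0.04 and *AMOTL1* -0.01. With reads across no junction alone, *CYR61* had 0.92 (adjusted p = 0.0144) and *AMOTL2* 0.71 (adjusted p = 0.0891).

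Counted by overlap, 5 of the 8 tested members (*CYR61*, *AMOTL2*, *CTGF*, *LATS1* and *LATS2*) had every emetine library above every untreated one, as did 19.5% of all tested genes. The same 5 had an unadjusted p under 0.05 for level, as did 21.9% of all tested genes in either direction. All 8 had a positive log2 fold change, where the median over all genes was 0.03 and the share of genes above 0 was not counted. With the length and GC trend removed, *AMOTL1* stood at -0.01. In the pair without s4U, *LATS1*, *WWTR1* and *YAP1* lay lower with emetine.

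For the 2 genes that rose, no difference in fraction new passed the test. The fraction new of *CYR61* was 95.1, 95.3 and 96.9% with emetine, against 87.9 to 95.3% untreated, and the groups overlapped (logit difference 0.67 ± 0.31, limma adjusted p = 0.251). By the share of reads with 2 or more conversions, its difference turned to -0.081. The fraction new of *AMOTL2* was 57.2, 62.9 and 61.2% with emetine, below all 3 untreated values (logit difference -0.42 ± 0.25, adjusted p = 0.440). *CTGF* had 80.6, 89.7 and 93.1%, on both sides of its untreated values. *LATS2* had 37.2, 41.4 and 30.0% (logit difference -0.67, adjusted p = 0.172) and *LATS1* 25.9, 24.6 and 19.3% (-0.50, adjusted p = 0.207), both overlapping their untreated ranges. *WWTR1* had 15.1, 11.0 and 14.3%, *AMOTL1* 13.4, 11.8 and 12.2% and *YAP1* 7.85, 8.31 and 4.72%. By limma, 0 of 8 members were called in fraction new, 3 of them (*CYR61*, *LATS1* and *LATS2*) with an unadjusted p under 0.05. Of all 10763 tested genes, 16.5% had an unadjusted p under 0.05, 5.05% were called in either direction and 4.83% as lower (23 higher and 520 lower; 126 and 748 after centering each library on its median). The median logit difference was -0.27 over the 8 members and -0.16 over all genes. Without the first untreated library, which had the lowest median fraction new, 4 members were called: *CYR61* at 0.94 (adjusted p = 0.0224), *LATS2* at -1.03 (0.0146), *LATS1* at -0.72 (0.0142) and *AMOTL1* at -0.48 (0.0308). In that fit, 23.8% of all genes were called. Without the third untreated library, 0 members were called, with *CYR61* at 0.42, *LATS2* at -0.34, *LATS1* at -0.33 and *AMOTL2* at -0.20, and 108 of all genes were.

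When reads were split into labeled and unlabeled ones, the labeled reads of *CYR61* rose. These stood at 12.6, 12.1 and 12.3 CPM untreated and at 24.2, 21.1 and 26.9 CPM with emetine, a log2 change of 0.93 ± 0.23 (limma on log2 of CPM + 0.5, adjusted p = 0.0137). Its unlabeled reads stood at 0.618, 1.08 and 1.69 CPM untreated and at 1.24, 1.04 and 0.868 CPM with emetine, which overlap (-0.03 ± 0.26, adjusted p = 0.951). With 87.9 to 96.9% of its reads new in every labeled library, nearly all *CYR61* reads are labeled in both groups, so the split adds little to the level for this gene. *CYR61* was the only member of 8 called higher in labeled reads, where 0.26% of all genes tested were. The call did not hold without the second untreated library (adjusted p = 0.387) or without any 1 of the emetine libraries (0.341, 0.0872 and 0.299), although the log2 change stayed between 0.85 and 1.02 in these fits.

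*AMOTL2* was the only member called higher in unlabeled reads, where 7.3% of all genes were. These stood at 3.85, 3.63 and 1.86 CPM untreated and at 6.48, 5.91 and 8.81 CPM with emetine, a log2 change of 1.10 ± 0.26 (limma adjusted p = 0.0351). Its labeled reads also lay higher in every emetine library, at 8.67, 10.0 and 13.9 CPM against 7.08, 6.90 and 6.68 CPM, with a log2 change of 0.59 ± 0.25 that did not pass the test (adjusted p = 0.278). The adjusted p of the unlabeled reads was 0.0797 without the second untreated library, 0.110 without the third and 0.0532 without the first emetine library. The difference between *CYR61* and *AMOTL2* in this respect was not tested as such.

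The other members stayed under the threshold in both kinds of read. For *CTGF*, the labeled reads were 5.01, 4.16 and 5.25 CPM untreated and 5.73, 6.29 and 6.73 CPM with emetine (log2 change 0.35 ± 0.26, adjusted p = 0.640), and the unlabeled ones lay between 0.425 and 1.377 CPM in the 6 libraries. For *LATS1* and *LATS2*, the labeled reads gave log2 changes of -0.0017 and 0.08, and the unlabeled reads 0.71 (adjusted p = 0.101) and 0.94 (adjusted p = 0.0946). Leaving out single libraries moved the unlabeled change of *LATS1* between 0.41 (adjusted p = 0.0117, without the third emetine library) and 0.86 (adjusted p = 0.0464, without the second), and that of *LATS2* between 0.66 and 1.17. In *LATS1* and *LATS2*, as in *WWTR1* and *AMOTL2*, the unlabeled reads lay higher in each emetine library than in any untreated one. How many of all genes did so was not counted. *WWTR1*, *AMOTL1* and *YAP1* had log2 changes between -0.21 and 0.14 in labeled reads and between 0.25 and 0.30 in unlabeled reads. In bulk libraries such as these, a change in RNA per cell cannot be told apart from a change in which cells carry it.

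**Figure D4:**
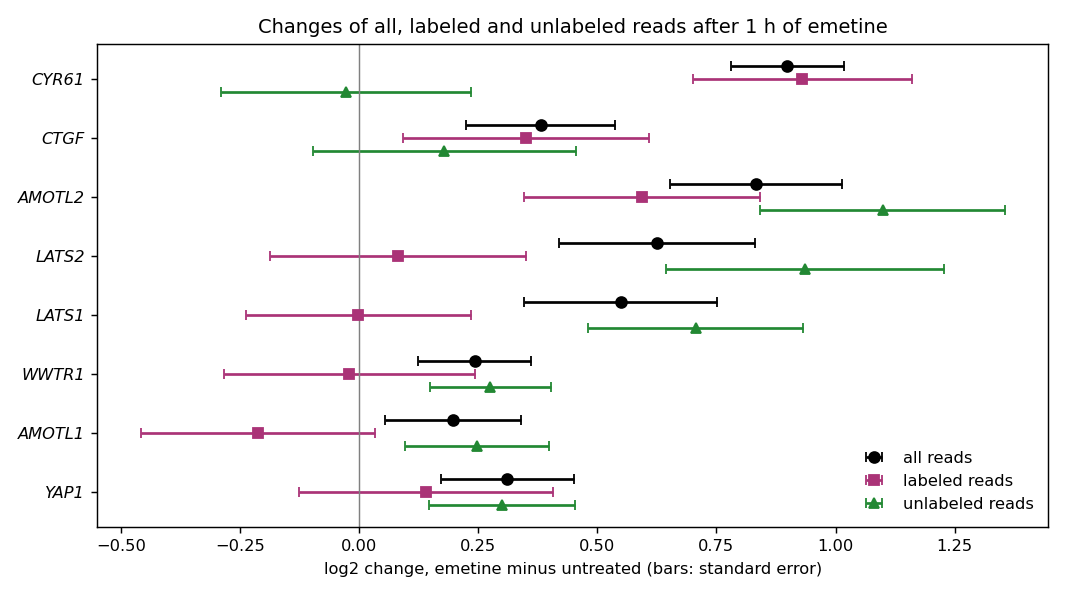
The horizontal axis gives the log2 change from untreated to emetine cells for all reads (black circles), labeled reads (purple squares) and unlabeled reads (green triangles) of 8 genes, with standard errors as bars. In *CYR61*, which has few unlabeled reads, the labeled reads lie near 0.93 and the unlabeled reads near 0. In *LATS1* and *LATS2* the labeled reads lie near 0 and the unlabeled reads at 0.71 and 0.94, neither of which passed the test.

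**Figure D5:**
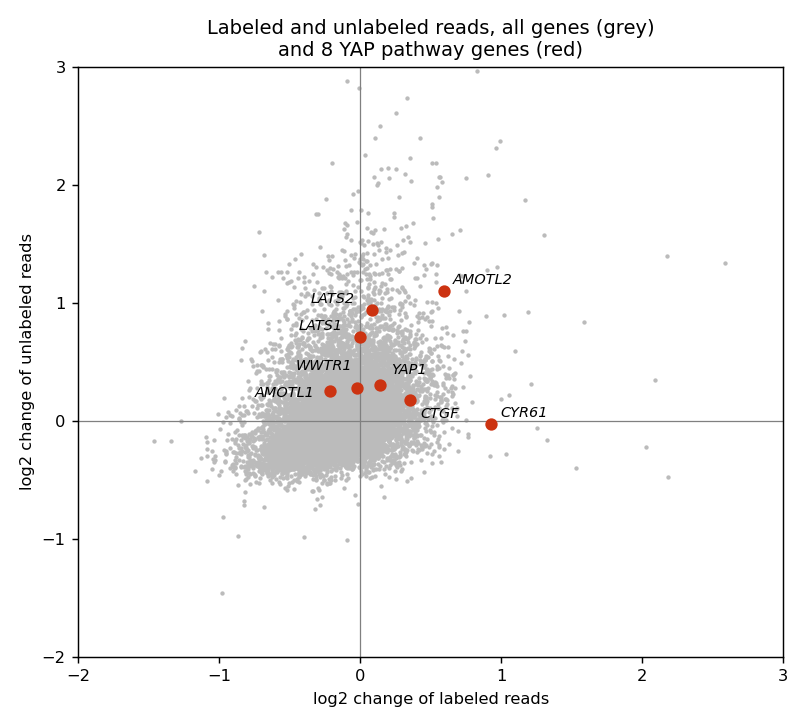
Each grey point is 1 of 10763 genes, with the log2 change of labeled reads on the horizontal axis and of unlabeled reads on the vertical axis, and 8 members are marked in red (2 genes lie outside the axes). *CYR61* sits to the right at 0.93 on the zero line of unlabeled reads, *AMOTL2* to the upper right, and the co-activators inside the main cloud.

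The single pair of libraries without s4U gives a second look at the same treatment, with no replicate. *CYR61* stood at 14.3 CPM without and 29.6 CPM with emetine, from 338 and 940 reads. *AMOTL2* stood at 10.8 and 14.8 CPM, *CTGF* at 7.38 and 10.8, *LATS2* at 5.51 and 6.45 and *AMOTL1* at 57.4 and 62.7 CPM. *LATS1* (43.6 and 40.3 CPM), *WWTR1* (24.1 and 22.7) and *YAP1* (48.1 and 41.2) lay lower with emetine in this pair. *ANKRD1* had 8 and 23 reads. In an edgeR fit over all 8 libraries, the interaction of emetine with s4U had an adjusted p of 0.986 or more for all 8 tested members. Each arm without s4U is a single library, assumed to vary like the labeled groups, so this fit does not show that the effects were alike. The largest differences were 0.66 for *LATS1* and 0.54 for *YAP1* on the log2 scale, with unadjusted p-values of 0.136 and 0.0867. Over all 14102 genes in that fit, 0 were called and 597 had an unadjusted p under 0.05.

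Among genes around the members, the share called was near that of all genes tested, of which 2.69% were called in level in either direction. Of 57 Hippo regulators, 54 were tested for level, and only *RASSF1*, whose product activates the MST kinases upstream of LATS, was called. It stood at 38.3, 38.5 and 44.2 CPM untreated and at 70.0, 78.4 and 66.0 CPM with emetine (log2 fold change 0.83 ± 0.10, adjusted p = 0.0086). New RNA made up 61.7 ± 6.49% of its reads untreated and 40.3 ± 0.375% with emetine, a decrease (SD, n = 3, limma adjusted p = 0.014). *RASSF1* was the only 1 of 48 regulators called in that measure, where 5.05% of all genes were called. The median log2 fold change of the regulators was 0.15, and 6 of 54 had an unadjusted p under 0.05, against 21.9% of all genes. The level call of *RASSF1* did not hold without any 1 untreated library (adjusted p-values of 0.0904, 0.0861 and 0.0591), nor did its fraction new call without the second or the third untreated library or any 1 emetine library (0.0930 to 0.157). Without the third emetine library, 6 of 54 regulators were called in level, 4 higher and 2 lower, where 13.9% of all genes were.

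The TEAD factors, through which YAP and TAZ reach DNA, were not called in either measure. *TEAD1* stood at 32.7 ± 2.26 CPM untreated and 45.0 ± 17.4 CPM with emetine (adjusted p = 0.264). *TEAD2* stood at 39.0 ± 1.84 and 32.7 ± 3.98 CPM (0.225), *TEAD3* at 13.1 ± 0.166 and 14.4 ± 0.546 CPM (0.470) and *TEAD4* at 53.5 ± 3.16 and 49.9 ± 4.62 CPM (0.557). Of 7 tested TEAD and VGLL genes, 0 were called by edgeR or by DESeq2, with 2 at an unadjusted p under 0.05 by each. Over all genes, 2.69% were called by edgeR and 7.08% by DESeq2, and 21.9% and 24.8% had an unadjusted p under 0.05, so 0 of 7 is no result about these genes. For fraction new, 0 of 5 were called by limma and 0 had an unadjusted p under 0.05. Over all genes, 5.05% were called and 16.5% had an unadjusted p under 0.05, so 0 of 5 is no result either.

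Among 17 other YAP target genes, 16 were tested for level and 1 was called, where 2.69% of all genes were. *GADD45A*, a stress gene whose product acts in growth arrest, stood at 8.82, 7.56 and 9.62 CPM untreated and at 24.7, 20.5 and 15.8 CPM with emetine (log2 fold change 1.24 ± 0.18, adjusted p = 0.0135). The share of new RNA fell as well, being 74.0 ± 12.6% untreated and 47.9 ± 3.80% with emetine (SD, n = 3; limma adjusted p = 0.0023), and its unlabeled reads rose (log2 change 2.06, adjusted p = 0.0048). Of 8 target genes tested for fraction new, *GADD45A* alone was called, where 5.05% of all genes were. Its level call did not hold without any 1 untreated library (adjusted p-values from 0.0757 to 0.108), nor its fraction new call without the third untreated library (0.147). The median log2 fold change of the 16 target genes was 0.19, and 3 had an unadjusted p under 0.05, against 21.9% of all genes.

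By profile over the 8 libraries, the genes nearest to *CYR61* among 10859 genes of at least 5 CPM were *MYC* and *NAPB*, with root mean square differences of 0.0713 and 0.0827 (log2 CPM centered on each gene). *MYC* had a log2 fold change of 0.90 (adjusted p = 0.0066) and *NAPB* of 0.78 (adjusted p = 0.0196). Their fraction new was 77.6 ± 8.86% untreated and 65.3 ± 3.90% with emetine in *MYC* (SD, n = 3; limma adjusted p = 0.159) and 50.7 ± 8.81% and 30.8 ± 1.28% in *NAPB* (adjusted p = 0.0148). Nearest to *AMOTL2* were *TOPORS* (0.0914) and *NFXL1* (0.103), with log2 fold changes of 0.74 and 0.80. The nearest genes were picked by likeness over the same libraries, emetine ones included. Their fold changes thus follow from the choice and are no separate result.

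In the 2 h experiment, 7 of the 9 members were among the 9982 genes listed, and *CTGF* and *ANKRD1* were not. The authors' mean of normalized counts over all 2 h libraries was 4271 for *LATS1*, 3266 for *AMOTL1*, 2759 for *YAP1* and 1191 for *WWTR1*. It was 537.1 for *CYR61*, 449.3 for *LATS2* and 357.0 for *AMOTL2*. These means are not per length and pool treated with untreated libraries, so they give an order of read numbers only, and the effect of 2 h of emetine or of its dose on the members was not analysed here.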

How the data were processed

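TimeLapse-seq libraries of HEK-293T cells were assigned to groups from the treatment and time in their labels. The authors trimmed reads with cutadapt, mapped them to hg38 with hisat-3n and made the conversion table with bam2bakR (HISAT and SAMtools are also named in the submitters' processing notes), and the deposited values of the 1 h table are read counts, by gene, T positions and conversions, without normalization. For the 2 h libraries, the deposited signal values are the authors' means of normalized counts over all 2 h libraries, scaled by spike-in size factors. The other columns of those tables hold the authors' own fold changes, errors and p-values for each dose and were not used, nor was the table of size factors.

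Counts were summed per gene and library. Levels were compared with edgeR 4.0.16 (R 4.3.3; quasi-likelihood test, TMM factors, which CPM carry too), keeping genes above 100 counts over the 6 labeled libraries. Fraction new was the weight of a 2-component binomial mixture, whose background rate came from the library without s4U of the same treatment, fitted in Python 3.11.15 (numpy 2.4.6, pandas 2.3.3, scipy 1.17.1). Its logit, bounded at 0.001 and 0.999, and the log2 of labeled and unlabeled CPM plus 0.5 were compared with limma 3.58.1 (trend, robust), provided that every labeled library held 100 reads or more of the gene. On that log2 scale, changes of low values are understated. Benjamini-Hochberg adjustment ran over all genes tested, and a gene was called below 0.05. Symbols were matched to GENCODE 44: of 19222 genes, 17147 matched by symbol, 1148 by an older symbol and 927 not. TPM used canonical transcript lengths of the matched genes. Figures used matplotlib 3.10.9.

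The members and gene lists were chosen with earlier results of these data known. All members were named. From the lists, genes called in level or fraction new (up to 6 per list and test) and the TEAD genes were named, and for each called member the 2 genes with the nearest profile. Alternatives were DESeq2 1.42.0, other size factors, spike-in scaling, filters, new-read rates, centering, a replicate block and leaving out each library. Removal of the length and GC trend (mgcv 1.9.3), reads across no junction and the s4U interaction were added after seeing the data.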

Additional observations from a re-analysis of the deposited data

How the results depend on the processing

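Of the members' 352 refits (each gene, measure and alternative), 302 kept direction and call, 21 lost a call, 9 gained one and 20 changed sign; the cause was not tested. For level, 2 members were called, against 1 with RLE size factors (*CYR61*), 0 with spike-in scaling (which moved the median of all genes to 0.71), 1 with reads across no junction, and 0 to 3 when single libraries were left out. All genes called numbered 371, against 976 by DESeq2, 60 with spike-in scaling, 78 with the replicate block, 1470 (758 higher, 712 lower) with the length and GC trend removed, 165 with reads across no junction and 4 to 1892 without single libraries. Hippo regulators called were 1, against 0 with spike-in scaling, 5 with the trend removed and 0 to 6 without single libraries. Other YAP targets called were 1, against 2 with DESeq2, without a count filter and with the trend removed, and 0 to 2 without single libraries.

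For fraction new, 0 members were called, and 0 to 4 without single libraries. Regulators were 1, against 0 at 50 reads, 2 by the share of reads with 2 conversions, 4 after centering and 0 to 10 without single libraries. TEAD and VGLL genes were 0, against 1 at 50 reads and 0 to 1 without single libraries, and other targets 1, against 0 to 2. All genes called were 543, against 312 at 50 reads, 874 after centering and 108 to 2565 without single libraries. Members called in labeled reads (1) and in unlabeled reads (1) each ran from 0 to 2 without single libraries, and all genes from 15 to 1797 (labeled, 96 with all libraries) and from 275 to 1859 (unlabeled, 796; 358 with the replicate block).

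With the replicate number as a block (replicate block), 1 member was called in level (*CYR61*, adjusted p = 0.0437; *AMOTL2* 0.128), 1 in fraction new (*LATS2*, 0.0487) and 0 in unlabeled reads. Regulators and targets called in fraction new were 2 and 2, and targets in level 0. Same-numbered libraries had correlations of their deviations of 0.0707, -0.0123 and -0.175 for level and 0.056, 0.0025 and 0.0221 for fraction new. Deviations were taken from group means, and for level the third emetine library had the widest ones. These values therefore cannot show whether same-numbered libraries were paired.

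Signs changed for level in *AMOTL1* (-0.011 with the trend removed). In fraction new they changed for *CYR61* (-0.081) and *CTGF* (-0.11) by the share of reads with 2 conversions, and for *YAP1* after centering (0.026). Without single libraries, fraction new ran from -0.20 to 0.39 for *CTGF* and -0.21 to 0.092 for *YAP1*. Labeled reads ran from -0.24 to 0.20 for *LATS1* (0.0028 with 1 new-read rate), -0.12 to 0.26 for *LATS2* and -0.16 to 0.16 for *WWTR1*. Unlabeled reads ran from -0.075 to 0.38 for *CTGF* and -0.27 to 0.21 for *CYR61*. Depth limits *ANKRD1*, with at most 23 reads a library, and *LATS2* and *CTGF*, with 114 to 343.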
